A study of Mus musculus with 10 samples.

Results

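The cartilage collagens are the 8 genes that encode the collagen chains characteristic of cartilage, namely Col2a1, Col9a1, Col9a2, Col9a3, Col10a1, Col11a1, Col11a2 and Col27a1. They were taken by gene symbol from a table of 53465 mouse genes, and all 8 passed the filter on low counts that left 16426 genes for testing. RNA was sequenced in bulk from microdissected pinna prominences, the forming external ears, of mouse embryos at E14.5. There were 5 wild-type (WT) and 5 mEC1dup/dup libraries, which the methods call independent biological replicates, on a C57BL/6J background. The mEC1dup/dup mice carry a knock-in copy of mEC1, a mouse enhancer of Hmx1, in addition to the resident one on both alleles, so that the allele is present in every cell and not only in cartilage. Hmx1, a homeobox transcription factor gene, had 376 to 526 counts per library in WT and 976 to 1356 in mEC1dup/dup, and the groups did not overlap (log2 fold change 1.31, adjusted p = 0.000127, edgeR).

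Cartilage owes its tensile strength to a thin fibril in which type II collagen is the bulk component, type XI collagen sits inside as a regulator of fibril diameter, and type IX collagen decorates the surface. Type X collagen is made by hypertrophic chondrocytes late in the maturation of cartilage that will be replaced by bone, and type XXVII collagen is a fibrillar collagen of developing cartilage. Transcription of most of these genes in chondrocytes depends on SOX9 together with SOX5 and SOX6. Col2a1 and the type IX and XI genes are also used in the inner ear.

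Library totals ran from 17461544 to 18462073 counts. Other features differed with genotype besides Hmx1. Embryonic globins made up 18.4 to 23.3% of globin counts in WT and 32.6 to 35.6% in mEC1dup/dup. Xist, which is expressed from the inactive X chromosome, had 2 to 5 counts in each WT library, against 12812, 19040, 18165, 2096 and 0 counts in mEC1dup/dup replicates 1 to 5. The globin share and the genotype cannot be told apart in this design, since the shares of the genotypes did not overlap. Xist followed the genotype in part, since mEC1dup/dup replicate 5 alone of its group was at the WT level, with 976 Hmx1 counts. Among marker lists, the summed level of 8 chondrocyte markers was 1321 to 2175 CPM (counts scaled to library size with edgeR's normalization factors) in WT, 575 CPM in mEC1dup/dup replicate 1 and up to 1589 CPM in the other mEC1dup/dup libraries. This list contains cartilage genes that rise and fall with the collagens, and it shows that cartilage RNA was present in all 10 libraries.

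The promoters of 3 cartilage collagens are shown because they represent a high, a middle and a very low level in this tissue. Each is the 250 bases before the start of the Ensembl canonical transcript, read from GRCm39 on the strand of the gene. Capitals mark matches, on either strand, to ACAAAG and the related word ACAATG (both bound by SOX factors), to CAAGTG (HMX factors), to GGGCGG (the GC box) and to TATAAA (the TATA box). The Col2a1 window is chr15:97902690-97902939 on the minus strand, the Col11a2 window chr17:34257866-34258115 on the plus strand and the Col10a1 window chr10:34265721-34265970 on the plus strand.
Col2a1: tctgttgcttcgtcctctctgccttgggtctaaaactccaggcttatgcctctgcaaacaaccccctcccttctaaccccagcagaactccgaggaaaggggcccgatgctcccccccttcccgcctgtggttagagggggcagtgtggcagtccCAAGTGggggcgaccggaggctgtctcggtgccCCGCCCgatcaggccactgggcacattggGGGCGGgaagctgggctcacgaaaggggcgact
Col11a2: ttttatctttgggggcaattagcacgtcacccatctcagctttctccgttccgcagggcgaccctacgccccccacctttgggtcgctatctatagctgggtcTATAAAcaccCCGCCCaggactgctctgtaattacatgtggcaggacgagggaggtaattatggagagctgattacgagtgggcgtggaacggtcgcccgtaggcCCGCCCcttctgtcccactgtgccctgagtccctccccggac
Col10a1: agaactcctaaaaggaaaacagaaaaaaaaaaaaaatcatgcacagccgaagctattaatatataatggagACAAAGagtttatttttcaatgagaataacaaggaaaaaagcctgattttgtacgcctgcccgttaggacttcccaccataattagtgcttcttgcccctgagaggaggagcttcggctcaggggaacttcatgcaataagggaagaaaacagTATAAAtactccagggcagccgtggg
Col2a1 held 1 CAAGTG match, 95 bases before the start, and 2 GC boxes. Col11a2 held a TATAAA match and 2 GC boxes, and Col10a1 held an ACAAAG match and a TATAAA match 26 bases before the start. GGGCGG was found in 5 of the 8 promoters and in 36.4% of 21495 protein-coding promoters of the same length. CAAGTG was found in 1 of 8 and in 12.4%, TATAAA in 2 of 8 and in 11.9%, ACAAAG in 1 of 8 and in 15.9%, and ACAATG in none of the 8 and in 9.38%. A match of letters is a description of the window and does not show binding.

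Expressed per kb of exon, the cartilage collagens covered a wide range of levels. Over all 10 libraries the mean was 362 CPM per kb for Col2a1, 243 for Col9a2, 170 for Col9a3 and 152 for Col9a1. It was 71.8 CPM per kb for Col11a2, 57.3 for Col11a1, 18.1 for Col27a1 and 0.253 for Col10a1. For every pair of neighbours in this order but one, the order was the same in 10 of 10 libraries. The exception was Col11a2 above Col11a1, in 9 of 10 libraries, where mEC1dup/dup replicate 1 had the reverse order. The type IX genes Col9a3 and Col9a1 were the closest of the neighbours that kept their order, at a ratio of 1.05 to 1.18, although their gap was smaller than the spread of either gene between libraries. Of the type IX genes, Col9a2 was at least 1.34 times Col9a3 per kb in every library. This gap rests on the exonic lengths, 3.099 kb for Col9a2 and 4.525 kb for Col9a3, taken as the union of all annotated exons. In CPM, Col9a3 to Col9a2 was 0.914 to 1.09 in WT and 0.952 to 1.05 in mEC1dup/dup. Col11a1 was above Col11a2 in CPM in every library, so the order of these genes per kb also rests on length. The hypertrophic collagen Col10a1 was close to the limit of detection.

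None of the 8 cartilage collagens was called changed in mEC1dup/dup. A gene was called where edgeR's quasi-likelihood test gave a p-value of 0.05 or less after Benjamini-Hochberg adjustment over all genes tested, provided that its average log2 CPM was 1 or more. Over all 16426 genes, 297 (1.81%) were called lower and 137 (0.834%) higher. None of the 8 had an unadjusted p under 0.05, against 16.2% of all genes. None had WT and mEC1dup/dup values that failed to overlap, against 5.07% of all genes. The log2 fold change was below 0 for 7 of the 8, with a median of -0.21, beside a median of -0.004 over all genes tested. DESeq2 likewise gave 0 members with an unadjusted p under 0.05. limma-voom gave 2, Col11a1 and Col11a2, and edgeR with no filter on low counts gave 3, these and Col10a1, of which none was called. With a library left out, 0 to 3 had such a p in edgeR, always among these 3 genes. With fewer chondrocytes, or less collagen RNA in each, bulk counts would fall alike, and the alternatives cannot be told apart here.

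Col2a1, the gene of the main cartilage collagen chain (chr15:97873483-97902689, minus strand), was the most abundant member. In WT replicates 1 to 5 it had 3637, 3833, 5207, 2904 and 3137 CPM, and in mEC1dup/dup replicates 1 to 5 it had 1369, 3356, 3191, 4193 and 3055 CPM. A single mEC1dup/dup library was far below all others, and the other 4 lay within the WT range. The means were 3744 ± 899 CPM in WT and 3033 ± 1030 CPM in mEC1dup/dup (SD, n = 5 each). The log2 fold change was -0.30, with a standard error of 0.23, a 95% interval of -0.81 to 0.20 and an adjusted p of 0.576 (edgeR). Without mEC1dup/dup replicate 1 it was -0.12, and without WT replicate 3, the highest library, it was -0.16.

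**Figure D1:**
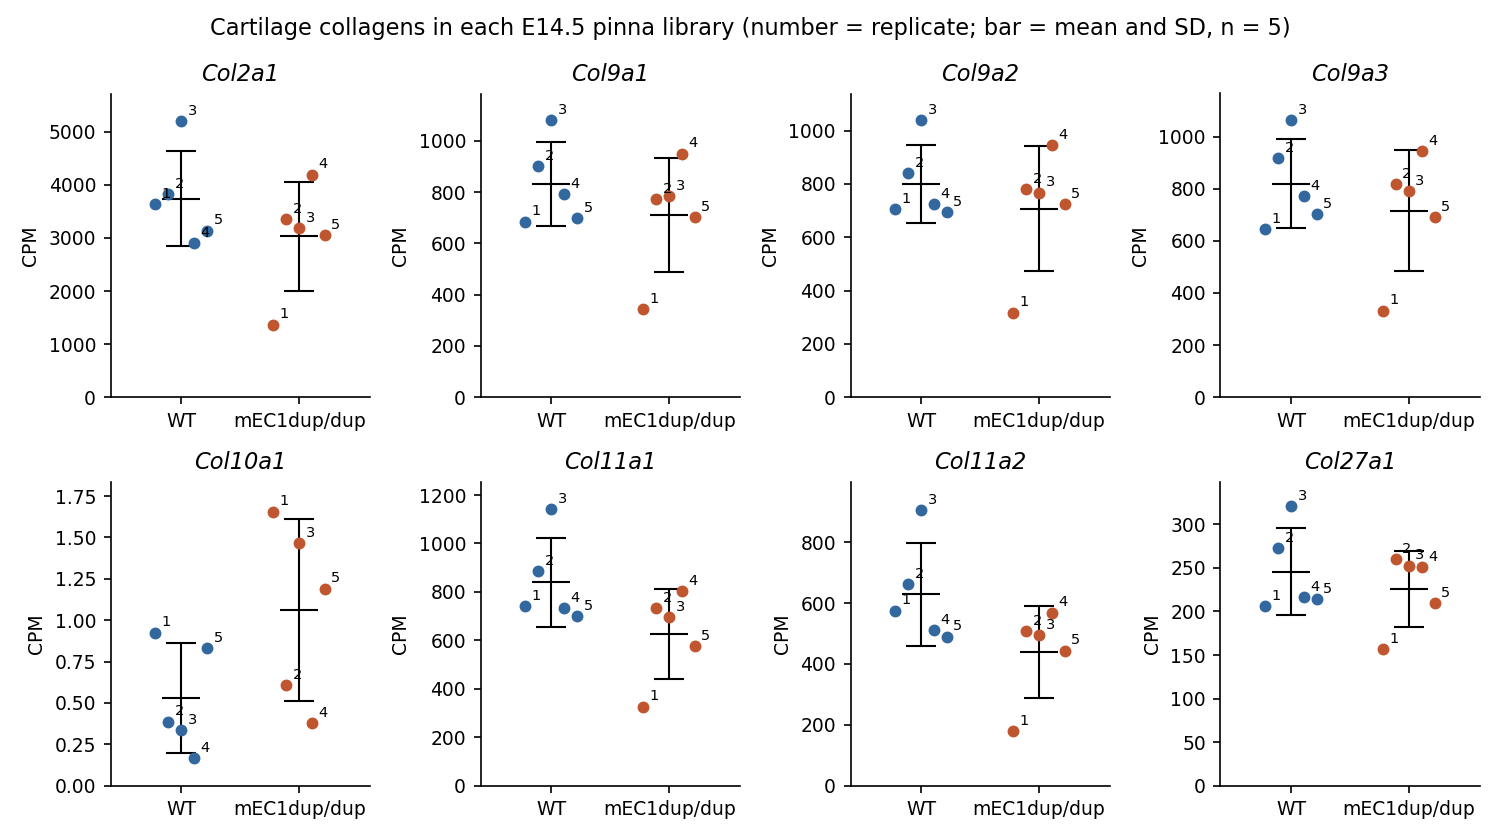
CPM of each cartilage collagen in the 5 WT and 5 mEC1dup/dup libraries, with replicate numbers, mean and SD; each panel has its own axis from 0. For every gene but Col10a1, mEC1dup/dup replicate 1 is the lowest library and WT replicate 3 the highest, and the groups overlap in all 8 panels.

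The 3 type IX genes encode the chains of a fibril-associated collagen that links the surface of the fibril to other matrix proteins. Col9a1 (chr1:24216691-24291765) had 685, 901, 1081, 793 and 699 CPM in WT and 345, 774, 783, 950 and 703 CPM in mEC1dup/dup. Col9a2 (chr4:120896582-120912523) had 705, 842, 1039, 724 and 694 CPM in WT and 318, 781, 768, 946 and 726 CPM in mEC1dup/dup. Col9a3 (chr2:180239583-180264063) had 644, 917, 1063, 773 and 703 CPM in WT and 332, 817, 792, 945 and 691 CPM in mEC1dup/dup. In each of the 3 genes mEC1dup/dup replicate 1 was lowest, WT replicate 3 was highest, and mEC1dup/dup replicates 2 to 5 fell within the WT range. The log2 fold changes were -0.23 for Col9a1, -0.18 for Col9a2 and -0.20 for Col9a3, with standard errors of 0.21, 0.22 and 0.22. The 95% intervals were -0.68 to 0.23, -0.65 to 0.29 and -0.67 to 0.28, and the adjusted p-values were 0.658, 0.751 and 0.726 (edgeR). Without mEC1dup/dup replicate 1 the values were -0.05, 0.0079 and -0.02. Col9a3 shares 11.8% of its exonic bases with Tcfl5 on the opposite strand, and Tcfl5 itself had 2.27 to 2.99 CPM in WT and 1.87 to 4.98 CPM in mEC1dup/dup.

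The type XI genes had the most negative fold changes of the 8 and still did not pass the test. Col11a1 (chr3:113824134-114014367), which encodes the alpha1 chain, had 740, 885, 1142, 734 and 699 CPM in WT and 326, 732, 696, 803 and 577 CPM in mEC1dup/dup. Col11a2 (chr17:34258108-34285664), the alpha2 chain, had 575, 662, 905, 511 and 490 CPM in WT and 181, 509, 494, 569 and 444 CPM in mEC1dup/dup. In both genes the mEC1dup/dup values extended below the WT range, and the highest mEC1dup/dup library, replicate 4, stayed below WT replicates 2 and 3. The log2 fold change of Col11a1 was -0.42 (standard error 0.20, 95% interval -0.86 to 0.01, adjusted p = 0.326, edgeR). That of Col11a2 was -0.52 (standard error 0.25, 95% interval -1.06 to 0.02, adjusted p = 0.331, edgeR). Without mEC1dup/dup replicate 1 they were -0.26 and -0.32.

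Col27a1 (chr4:63132241-63253228), a fibrillar collagen gene of cartilage with the lowest level but that of Col10a1, was the least variable of the 8 in mEC1dup/dup. It had 206, 273, 321, 216 and 214 CPM in WT and 157, 260, 253, 251 and 210 CPM in mEC1dup/dup. Only mEC1dup/dup replicate 1 lay below the WT range. Its log2 fold change was -0.12 (standard error 0.15, 95% interval -0.44 to 0.19, adjusted p = 0.746, edgeR). Without WT replicate 3 it was -0.0084, and without mEC1dup/dup replicate 1 it was -0.015.

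Col10a1 (chr10:34265971-34273081), the marker of hypertrophic chondrocytes, was the only member with a fold change above 0, and its counts were very low. The raw counts were 16, 7, 6, 3 and 15 in WT and 29, 11, 27, 7 and 22 in mEC1dup/dup, summing to 47 and 96. The groups overlapped, and mEC1dup/dup replicate 1, the lowest library for the other 7 genes, was the highest for Col10a1. The log2 fold change was 0.99 (standard error 0.47, 95% interval -0.03 to 2.02, adjusted p = 0.323, edgeR). With an average log2 CPM of -0.15 the gene could not have been called at any p. Col10a1 shares 20.8% of its exonic bases with Nt5dc1 on the opposite strand, which had 6.53 ± 0.48 CPM in WT and 7.47 ± 0.59 CPM in mEC1dup/dup (SD, n = 5 each). Whether the counting used strand is not given in the sources used here, so reads of Nt5dc1 may be among those of Col10a1.

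**Figure D2:**
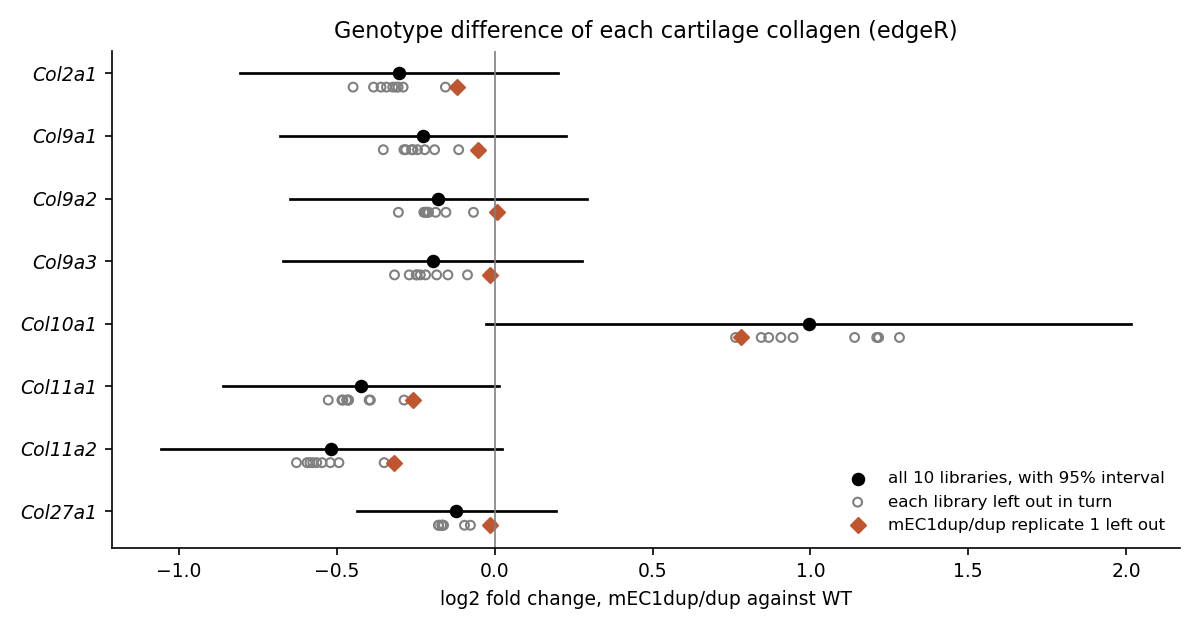
Log2 fold change of each cartilage collagen, mEC1dup/dup against WT, with its 95% interval from edgeR (black) and the estimates with each library left out in turn (open circles; red diamonds, mEC1dup/dup replicate 1 left out). Every interval includes 0, and leaving out mEC1dup/dup replicate 1 moves Col9a2 from -0.18 to 0.0079.

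The spread between replicates was large for these genes. On the log2 CPM scale the SD of the type II, IX and XI genes was 0.25 to 0.36 in WT and 0.52 to 0.67 in mEC1dup/dup. Over the 14084 tested genes with an average log2 CPM of 1 or more, the median SD was 0.113 in WT and 0.105 in mEC1dup/dup. In mEC1dup/dup, 97.6 to 98.8% of those genes had a smaller SD than Col11a1 and Col11a2, the least and the most variable of these 6 genes. Without mEC1dup/dup replicate 1 the mEC1dup/dup SD of the same genes was 0.15 to 0.20. That library had 35.8% of the mean of the other mEC1dup/dup libraries for Col11a2, 39.7% for Col2a1 and 64.3% for Col27a1. WT replicate 3 had 140 to 162% of the mean of the other WT libraries for the 7 genes other than Col10a1. All 8 genes together took 0.661 to 1.06% of the counts in WT, 0.304% in mEC1dup/dup replicate 1 and 0.641 to 0.870% in mEC1dup/dup replicates 2 to 5.

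The sum of otic markers, though not of all markers of neighbouring tissue, was low in the same library. The summed level of 6 otic and periotic markers was 304 to 386 CPM in WT, 91.3 CPM in mEC1dup/dup replicate 1 and as high as 558 CPM in mEC1dup/dup. Oc90, a major protein gene of the inner ear otoconia, had 175 to 229 CPM in WT and 39.0, 210, 204, 338 and 220 CPM in mEC1dup/dup replicates 1 to 5. The library lowest in cartilage collagens was therefore also the lowest in Oc90, and the mEC1dup/dup library highest in both was replicate 4. mEC1dup/dup replicate 1 was the lowest of all 10 libraries for 5 of the 6 otic markers, as for 8 of 8 chondrocyte and 4 of 5 osteoblast markers, and for 0 of the muscle, epithelial and tendon markers. The exception among the otic markers was Otoa, with 4.51 CPM in that library and 2.66 to 7.28 CPM in WT. None of the 6 otic markers was called. Otor alone of them had a fold change below 0 and an unadjusted p under 0.05 (log2 fold change -0.60, adjusted p = 0.153, edgeR), and it is counted among the cartilage matrix genes as well. Of 6 muscle markers 2 were called lower (Ckm and Acta1), and of 6 epithelial markers 5 (Krt5, Krt14, Perp, Krt10 and Krt1). Of 3 tendon markers 1 was called lower (Tnmd), and of 5 osteoblast markers tested 0. With the Xist level as a covariate 1 gene of all tested was lower, so at most 1 of these calls held. With the globin share as a covariate, 0 genes were called. Summed muscle markers (908 to 1413 CPM in WT, 546 to 858 CPM in mEC1dup/dup) and summed epithelial markers (783 to 1555 and 543 to 751 CPM) were lower in mEC1dup/dup without overlap. Within mEC1dup/dup, replicate 1 had the highest epithelial sum (751 CPM), a muscle sum near the top of its group (841 CPM), the median tendon sum (66.8 CPM) and the lowest osteoblast sum (33.5 CPM). The part of tissue composition in the collagen values was not tested.

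**Figure D3:**
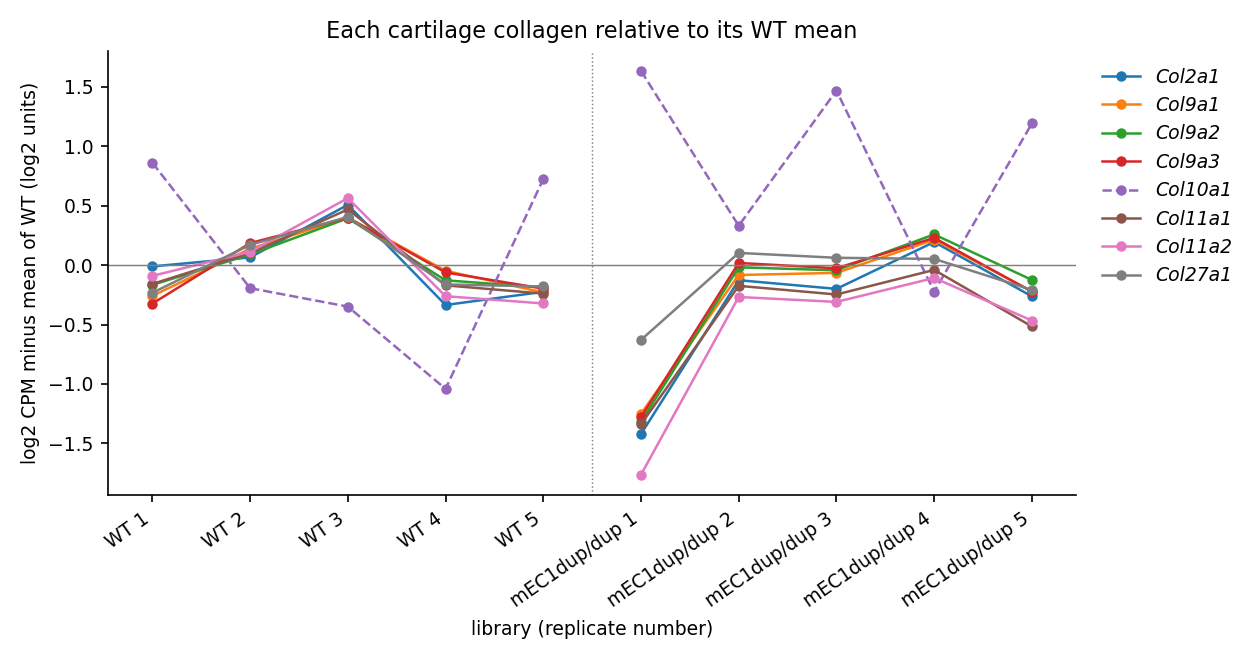
Log2 CPM of each cartilage collagen minus its WT mean, in each library (x axis); lines only join the values of a gene, since replicates have no order. The solid lines of 7 genes run together, high in WT replicate 3 and low in mEC1dup/dup replicate 1, where they lie between -1.76 and -0.63, and the dashed line of Col10a1 does not follow them.

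Across libraries 7 of the 8 genes rose and fell together. As a description over 10 libraries, the correlation of log2 CPM with Col2a1 was r = 0.979 for Col11a2, 0.975 for Col9a2, 0.966 for Col11a1, 0.959 for Col9a1, 0.945 for Col9a3 and 0.884 for Col27a1, and -0.56 for Col10a1. The corresponding rank correlations were lower, 0.842 for Col11a2 and 0.673 for Col9a1. Without the libraries farthest from the median, mEC1dup/dup replicate 1 and WT replicate 3, r over the remaining 8 was 0.766 for Col11a2, 0.789 for Col9a2 and 0.506 for Col27a1, so the height of the first values rests on these libraries. The 10 genes most like Col2a1 among 14036 compared were Col11a2, Col9a2, Cytl1, Trpv4, Col11a1, Chadl, Susd5, Col9a1, Fhip1a and Papss2, at r of 0.979 to 0.954. Of these, Trpv4 encodes a calcium channel of chondrocytes and Papss2 an enzyme that makes the sulfate donor for proteoglycans. In all, 41 genes had r of at least 0.9.

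Ratios within a library were compared to describe the composition of the collagen RNA. Of 10 ratios, the one with the smallest p was Col11a2 to Col2a1. It was 0.158, 0.173, 0.174, 0.176 and 0.156 in WT and 0.132, 0.152, 0.155, 0.136 and 0.145 in mEC1dup/dup. Every mEC1dup/dup library was below every WT library. The difference was -0.22 on the log2 scale, with a two-sided exact permutation p of 0.00794, the smallest that 5 against 5 libraries allow, and the adjusted p over 10 ratios was 0.0794. A single ratio at the smallest possible p cannot go below that value here, so the adjustment could not have been passed by this ratio alone. The remaining 9 ratios had adjusted p-values of at least 0.423 (exact permutation). The differences of larger size were both higher in mEC1dup/dup, 1.24 on the log2 scale for Col10a1 to Col2a1, which rests on very few counts, and 0.24 for Col27a1 to Col2a1. Without mEC1dup/dup replicate 1 they were 0.79 and 0.10, and Col11a2 to Col2a1 was -0.19. Col11a1 to Col11a2 differed by 0.12 on the log2 scale (0.044 without that library). Col9a2 to Col2a1 differed by 0.11 (0.075 without WT replicate 1, 0.17 without WT replicate 4). Without WT replicate 4 its adjusted p was 0.0794 (exact permutation), the same as that of Col11a2 to Col2a1 in that setting. Paired by replicate number, Col11a2 to Col2a1 had a p of 0.0625 (exact test over 32 sign flips), the smallest that 5 pairs allow. Its adjusted p was then 0.3125. Within type IX, Col9a1 to Col9a2 was 0.972 to 1.10 in WT and 0.969 to 1.08 in mEC1dup/dup. The log2 differences were -0.03 for Col9a1 to Col9a2 and -0.01 for Col9a3 to Col9a2. With a library left out, the difference for Col9a1 to Col9a2 ran from -0.057 to -0.012.

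**Figure D4:**
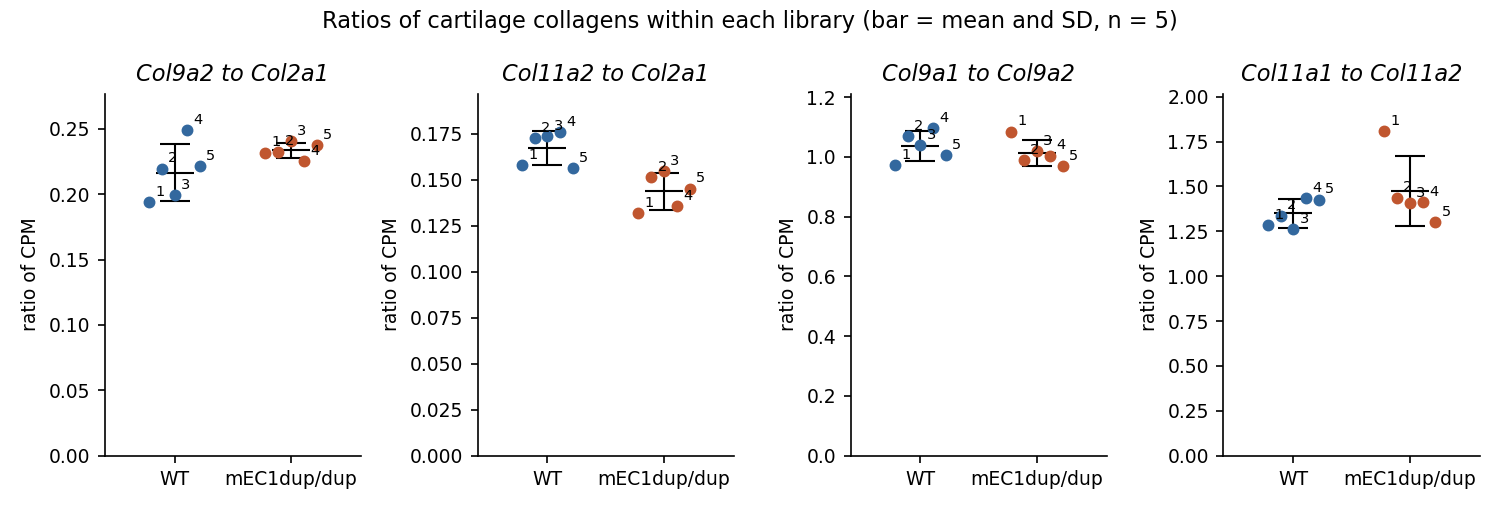
Ratios of CPM between cartilage collagens within each library, with replicate numbers, mean and SD (n = 5 per group); axes start at 0. Only Col11a2 to Col2a1 separates the genotypes, at 0.156 to 0.176 in WT and 0.132 to 0.155 in mEC1dup/dup, and its exact permutation p, the smallest possible, gives an adjusted p of 0.0794, below which a single ratio cannot go.

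Companion lists showed which other cartilage genes did and did not pass the same test. Of 13 chondrogenic transcription factor genes, 0 were called, 2 had an unadjusted p under 0.05 (edgeR), and the median log2 fold change was 0.08. Sox9, the master regulator of chondrocytes, had 196, 237, 260, 178 and 202 CPM in WT and 159, 284, 270, 280 and 232 CPM in mEC1dup/dup. Its values overlapped between the genotypes, mEC1dup/dup replicate 1 was again the lowest, and the log2 fold change was 0.19 (adjusted p = 0.572, edgeR).

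Of 20 tested genes of the non-collagen cartilage matrix, 3 were called lower and 0 higher, 9 had an unadjusted p under 0.05 (edgeR), and the median log2 fold change was -0.46. Comp, which encodes a pentameric protein that binds collagen fibrils, fell from 14.0 ± 2.06 to 5.92 ± 1.78 CPM (SD, n = 5 each). Its log2 fold change was -1.24 (adjusted p = 0.00640, edgeR). Snorc, a chondrocyte proteoglycan gene, fell from 3.04 ± 0.71 to 1.21 ± 0.48 CPM, a log2 fold change of -1.32 (adjusted p = 0.0230, edgeR). Fmod, encoding fibromodulin, which regulates fibril assembly, fell by 0.46 on the log2 scale (adjusted p = 0.0101, edgeR). In each of these 3 genes the groups did not overlap. Matn1, a cartilage matrilin gene with the highest CPM of the list, had 522 ± 142 CPM in WT and 328 ± 129 CPM in mEC1dup/dup and was not called (log2 fold change -0.67, adjusted p = 0.259, edgeR).

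Of 8 tested genes of hypertrophic and mineralising cartilage, the list that belongs with Col10a1, 0 were called, 2 had an unadjusted p under 0.05 (edgeR) and the median log2 fold change was -0.22. The gene with its highest mean CPM, Pth1r, the receptor for parathyroid hormone-related protein, had 152 ± 8.28 CPM in WT and 153 ± 7.95 CPM in mEC1dup/dup. Of 7 fibrillar and type V collagens of dermis and other connective tissue, 1 was called lower, 6 had an unadjusted p under 0.05 (edgeR), and all 7 had a fold change below 0, with a median of -0.28. The called gene was Col5a3, a type V chain (36.5 ± 4.95 to 23.1 ± 3.55 CPM, log2 fold change -0.66, adjusted p = 0.0107, edgeR). Col3a1, the type III chain and by a narrow margin the gene of highest mean CPM, had 5528 ± 891 CPM in WT and 4567 ± 391 CPM in mEC1dup/dup (log2 fold change -0.28, adjusted p = 0.168, edgeR). Col1a1, the main collagen chain of dermis and bone, had 5606 ± 1294 CPM in WT and 4397 ± 187 CPM in mEC1dup/dup (log2 fold change -0.35, adjusted p = 0.188, edgeR). The spread of Col1a1 was thus smaller in mEC1dup/dup than in WT. That of Col2a1 was larger in mEC1dup/dup over all libraries. Without mEC1dup/dup replicate 1 the log2 SD of Col2a1 was smaller there too, 0.20 against 0.33 in WT. That replicate had the highest Col1a1 of the mEC1dup/dup libraries, 4640 CPM.

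Of 26 genes for enzymes and chaperones that modify, secrete or crosslink collagen, 4 were called lower and 0 higher, 11 had an unadjusted p under 0.05 (edgeR), and the median log2 fold change was -0.11. P4ha1 and P4ha2 encode catalytic subunits of prolyl 4-hydroxylase, which stabilises the collagen triple helix, and both fell by 0.31 on the log2 scale (adjusted p = 0.00493 and 0.0224, edgeR). Adamts14, a procollagen N-proteinase gene, fell by 0.48 (adjusted p = 0.00804, edgeR), and Pcolce, whose product enhances removal of the C-propeptide, fell by 0.27 (adjusted p = 0.0444, edgeR). Serpinh1, the collagen chaperone gene with the highest CPM of the list, had 2314 ± 56.7 CPM in WT and 2159 ± 56.5 CPM in mEC1dup/dup and was not called (adjusted p = 0.130, edgeR), although its groups did not overlap. These enzymes also serve the collagens of dermis. With the Xist level as a covariate, 0 genes of the companion lists were called.

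**Figure D5:**
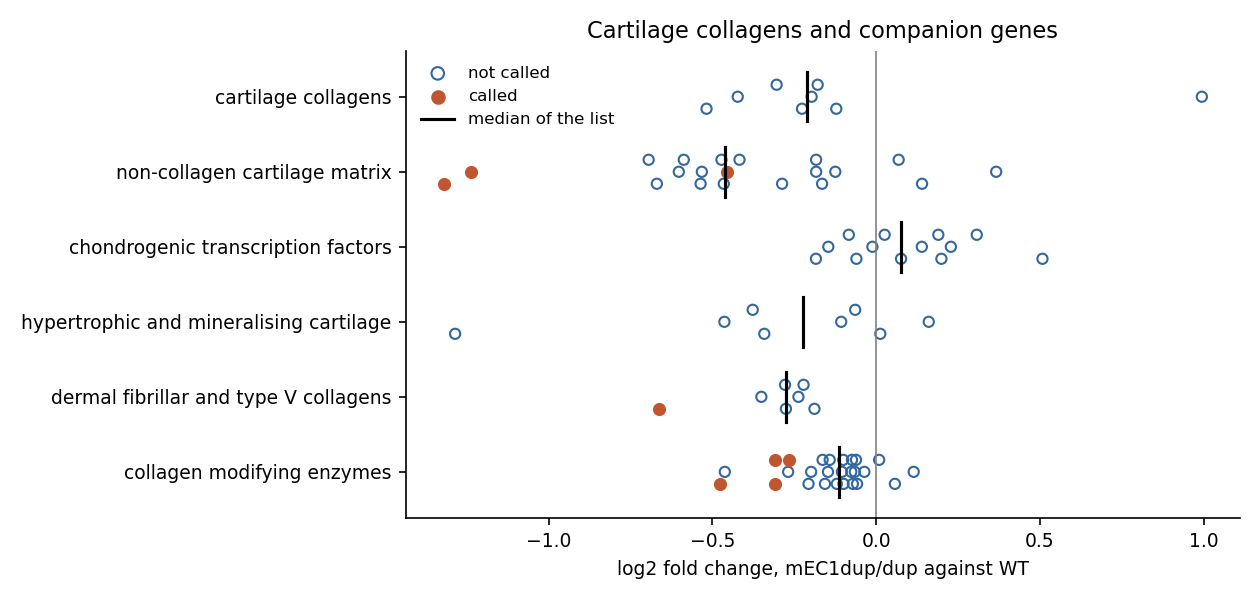
Log2 fold change, mEC1dup/dup against WT, of every tested gene of the cartilage collagens and of 5 companion lists, with called genes filled and the median of each list as a bar. No cartilage collagen is called, Col10a1 alone of the 8 lies above 0, and the called genes of the other lists all lie below 0.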

How the data were processed

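Raw counts per gene were deposited as a single table by the authors, who per the labels and methods used fastp, FastQC, STAR and featureCounts on GRCm39. The annotation release, strand setting and treatment of multi-mapping reads are not given in the sources used here. All rows were mouse Ensembl genes, and 49355 of 53465 IDs were matched to GENCODE vM39 (GRCm39), which gave symbols, positions, exonic lengths and promoters. Unmatched IDs held 0.111% of counts. Groups came from the labels, with 5 replicates each.

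Counts were filtered (filterByExpr), scaled by TMM and fitted with edgeR 4.0.16 in R 4.3.3 (glmQLFit, glmQLFTest, genotype as the only term), and p-values were adjusted over 16426 genes. CPM and the log2 CPM used for ratios and correlations (prior count 2) use TMM library sizes. Standard errors and 95% intervals were derived from the quasi-likelihood F statistic. Ratios were tested by exact permutation. The fit was tested on simulated data. DESeq2 1.42.0 and limma 3.58.1 served as alternatives, besides other scalings and filters, covariates, the replicate number and the omission of libraries. Figures were drawn with matplotlib.

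The 8 genes, the companion lists and the rule for named genes were chosen with earlier results of these data known. By that rule the 8 members, Hmx1 and Xist, the called genes and the gene of highest mean CPM in each companion list, and the 10 genes most like Col2a1 were named. Col1a1, Oc90, Otor, Otoa, the overlapping neighbours of Col10a1 and Col9a3 and the called markers were named besides these. Mia, Mmp13 and Bglap did not pass the filter. Intervals cover the spread between these libraries only.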

Additional observations from a re-analysis of the deposited data

Results flagged for a closer look

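In 3 of the 16 groups of 5 libraries checked for the cartilage collagens, the lowest library stood apart by Dixon's criterion on the log2 CPM scale, where the gap to the nearest library divided by the range of the group was above the 95% critical value for 5 libraries. All 3 were mEC1dup/dup replicate 1: the gap was 0.717 of the range for Col2a1, 0.757 for Col9a2 and 0.784 for Col11a2. The 3 genes share their variation and so are not independent, and chance alone gives about 1 such group in 20 groups checked. The log2 scale was chosen after the values were seen, and on the CPM scale none of the 16 groups passed the criterion. The ratios between members, 20 further groups, gave none. Of 68 groups of the 34 other genes named and tested, 9 passed on the log2 CPM scale and 8 on the CPM scale. In 6 of the 9 the library was again mEC1dup/dup replicate 1, at the low end: 0.766 of the range for Oc90, 0.744 for Matn1, 0.807 for Trpv4, 0.734 for Chadl, 0.835 for Susd5 and 0.888 for Papss2. The last 4 were named for their likeness to Col2a1, so their low value in that library is no separate evidence. The others were WT replicate 3, high for Comp (0.828), mEC1dup/dup replicate 5, high for Adamts14 (0.756), and mEC1dup/dup replicate 1, high for the epithelial gene Perp (0.771). mEC1dup/dup replicate 1 had the lowest summed otic markers, 91.3 CPM, and a Sox9 level of 159 CPM. The cause was not tested.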

How the results depend on the processing

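No cartilage collagen was called under any alternative run, and Col10a1 stayed above 0 in those that tested it, since it did not pass the filter of at least 10 counts in every library. With embryonic globin share, whose ranges in the genotypes do not overlap, as a covariate, log2 fold changes turned to 0.94 for Col2a1, 0.12 for Col9a1, 0.42 for Col9a2, 0.094 for Col11a1, 0.52 for Col11a2 and 0.0030 for Col27a1. With the Xist level as a covariate they were -0.20 for Col2a1, -0.15 for Col9a1, -0.064 for Col9a2 and -0.16 for Col9a3. In the same fit Col10a1 had 0.97, Col11a1 -0.46, Col11a2 -0.44 and Col27a1 -0.20. An omission of mEC1dup/dup replicate 1 and WT replicate 3 together was added after seeing the data. They are the lowest and the highest library for these very genes, so that leaving them out shrinks the difference by construction. It gave 0.034 for Col2a1, 0.066 for Col9a1, 0.12 for Col9a2, 0.10 for Col9a3 and 0.10 for Col27a1. Col11a1 and Col11a2 stayed below 0, at -0.12 and -0.15.

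With each library left out in turn, the ranges were -0.31 to 0.0079 for Col9a2 and -0.047 to 0.017 for the ratio of Col9a3 to Col9a2, which turned positive without WT replicate 2 (0.017), WT replicate 4 (0.0094) or mEC1dup/dup replicate 5 (0.016). The 8 lower calls in companion lists became 14 with limma-voom sample weights, 0 with Xist or the globin share as a covariate, 5 in the added omission and 5 (without WT replicate 3, mEC1dup/dup replicate 3 or mEC1dup/dup replicate 4) to 16 (without WT replicate 4) with a library left out. The 0 higher calls became 1 with no filter, with the weights, in the added omission and without mEC1dup/dup replicate 1 (range 0 to 1). Over all genes, the 297 lower and 137 higher calls became 510 and 321 with DESeq2, 584 and 309 with the weights, 488 and 324 at an adjusted p of at most 0.1, 1 and 2 with Xist, and 0 and 0 with the globin share. In the added omission 72 were higher, and with a library left out 120 (without mEC1dup/dup replicate 3) to 476 (without WT replicate 4) were lower and 34 to 179 higher. The causes were not tested.

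With the replicate number as a block, 14 companion genes were lower and 1 higher, 487 of all genes were lower, and Col10a1, Col11a1 and Col11a2 had unadjusted p-values of 0.00944, 0.00910 and 0.0181 (edgeR, adjusted p = 0.116, 0.114 and 0.165). Deviations of same-numbered libraries correlated at -0.06, 0.23, 0.26, 0.43 and 0.30 for numbers 1 to 5. Of the 5 pairs 4 correlated at more than 0.1 and 1 did not, and 4 of 10 libraries correlated best with their own number. The paper's reporting summary, by which replicates in the mouse studies came from siblings of separate litters, does not tie a number to a litter. The numbers were therefore not taken as pairs in the main fit. With the block the standard error was smaller for all 8 members, from 0.23 to 0.21 for Col2a1 and from 0.15 to 0.08 for Col27a1. Whether the numbers mark litters was not tested. Counting depth limits Col10a1 alone among the 8.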

Other observations

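Set against Sox9 in the same library, the cartilage collagens separated the genotypes more often than their own levels did. This ratio was chosen after the values were seen and is given as a description, with no test. Col2a1 per Sox9 CPM was 18.6, 16.2, 20.0, 16.3 and 15.6 in WT and 8.64, 11.8, 11.8, 15.0 and 13.2 in mEC1dup/dup, so that every mEC1dup/dup library was below every WT library. Col11a2 per Sox9 was 2.43 to 3.48 in WT and 1.14 to 2.03 in mEC1dup/dup, where the mean was 60.0% of that in WT. Col27a1 per Sox9 was 1.05 to 1.23 in WT and 0.898 to 0.987 in mEC1dup/dup. In all, 6 of the 8 members were lower without overlap, the exceptions being Col9a3 and Col10a1. The same held for 11 of 20 genes of the non-collagen cartilage matrix and for 1.10% of the 16425 other genes tested. The members rise and fall together, so these 6 are not separate observations, and most of the other genes do not share this variation. Sox9 itself was not called, and its fold change was above 0, which lowers the ratio of every gene to it. The log2 fold changes of Sox5 and Sox6 were 0.03 and -0.08. Ratios to them were not compared, so the separation is described for Sox9 as the denominator only.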
